A study of Mus musculus with 2 samples.

Results

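Collagens are the trimeric structural proteins of the extracellular matrix, and 41 collagen chain genes were followed here across the cell classes of the noise-exposed mouse inner ear. A gene counted as a member if its symbol had the form Col, number, a, number and at least 20 unique molecular identifiers (UMIs, 1 per captured transcript) were summed over all barcodes of both libraries. Of the 32285 genes in the matrices, 44 had such a symbol and 41 reached the minimum, with 64716 UMIs among them. Col6a4 with 4 UMIs, Col10a1 with 2 and Col17a1 with 7 did not.

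Each collagen molecule is made of chains that wind into a triple helix inside the cell, which needs prolyl and lysyl hydroxylases and the chaperone encoded by Serpinh1. Fibrillar types build bone, ligament and tympanic membrane, fibril-associated types sit on fibrils, and type IV forms the sheet of every basement membrane. In the inner ear, types II, IX and XI are known from the tectorial membrane and spiral ligament, and the type IV chains of the Col4a3, Col4a4 and Col4a5 genes from the cochlear basement membranes affected in Alport syndrome.

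The 2 libraries were made with a 3' droplet method, 1 per group, so that counts do not grow with transcript length. Both came from the same 5 CBA/CaJ mice aged 4 to 6 weeks: an adeno-associated virus (AAV) with the gene of the LIM-homeodomain transcription factor Isl1 was given to 1 ear of each before noise, and the untreated opposite ears gave the noise-only library. All animals heard 105 dB noise over 1 to 20 kHz for 2 h, and dissection followed 2 days later. The ears of each group were pooled, so there was no replicate, no test could be made between treatments, and every interval given covers counting error only, at 95%. The vector's promoter and serotype are not given in the sources used here.

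The noise-only library held 21068 barcodes with 38330528 UMIs and the AAV-Isl1 library 24209 barcodes with 40268563 UMIs, of which 18757 and 21370 barcodes were kept after filters, with medians of 1048 and 1080 UMIs. These numbers far exceed the 1600 cells that the labels give as loaded per library, and how many barcodes hold little more than free RNA was not tested. The libraries had 145 barcodes in common; without these, all 56 values recomputed moved by less than their counting intervals. The kept cells fell into 27 clusters built without collagen genes, 18 of which could be named from marker genes as "like" a class. The tissue is labelled sensory epithelium, yet the hair cell-like cluster had only 93 and 316 cells, and glia-, bone-, vessel-, fibrocyte- and blood-like clusters made up much of the rest. The 23 clusters with at least 100 cells in each library were compared. In bulk sums over all cells, fewer cells of a type and less RNA per cell cannot be told apart.

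Promoter sequences are shown for the type IV genes, because Col4a1, Col4a2, Col4a4 and the X-linked Col4a5 were among the highest chains of the pericyte-like cells described further on and because these genes lie head to head. Col4a1 (chromosome 8, 11198423 to 11312826, minus strand) and Col4a2 (11312805 to 11449287, plus strand) overlap at their starts. Col4a4 (chromosome 1, 82448423 to 82586849, minus strand) starts 71 bases from Col4a3 (82586921 to 82722059, plus strand), and Col4a6 (X, 141165403 to 141474076, minus strand) starts 1308 bases from Col4a5 (141475385 to 141689234, plus strand), all in GRCm38. Each window below runs from 250 bases before to 50 bases after the RefSeq start in GRCm38.p6, on the strand of its gene, and capitals mark GGGCGG (the core GC box) or CCAAT, read on either strand. The windows are Col4a1 at chr8:11312777-11313076, Col4a2 at chr8:11312555-11312854, Col4a4 at chr1:82586800-82587099, Col4a5 at chrX:141475169-141475468 and Col4a6 at chrX:141474027-141474326.
Col4a1: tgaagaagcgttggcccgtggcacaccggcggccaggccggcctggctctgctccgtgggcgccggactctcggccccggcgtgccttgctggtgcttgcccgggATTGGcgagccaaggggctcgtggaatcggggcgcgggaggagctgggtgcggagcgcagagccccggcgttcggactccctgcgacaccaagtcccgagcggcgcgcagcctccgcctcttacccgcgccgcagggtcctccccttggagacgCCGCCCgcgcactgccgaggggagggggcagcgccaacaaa
Col4a2: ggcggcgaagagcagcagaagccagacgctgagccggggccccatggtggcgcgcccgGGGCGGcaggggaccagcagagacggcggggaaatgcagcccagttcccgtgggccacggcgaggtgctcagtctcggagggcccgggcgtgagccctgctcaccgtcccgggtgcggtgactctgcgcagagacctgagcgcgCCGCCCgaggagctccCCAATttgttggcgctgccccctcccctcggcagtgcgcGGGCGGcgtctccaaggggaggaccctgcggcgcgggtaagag
Col4a4: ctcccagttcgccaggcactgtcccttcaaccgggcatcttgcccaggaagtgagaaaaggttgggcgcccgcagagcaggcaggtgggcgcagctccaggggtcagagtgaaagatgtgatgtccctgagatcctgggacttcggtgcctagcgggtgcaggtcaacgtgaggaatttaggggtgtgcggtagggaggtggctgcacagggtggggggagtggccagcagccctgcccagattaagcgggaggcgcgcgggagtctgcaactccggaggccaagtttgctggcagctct
Col4a5: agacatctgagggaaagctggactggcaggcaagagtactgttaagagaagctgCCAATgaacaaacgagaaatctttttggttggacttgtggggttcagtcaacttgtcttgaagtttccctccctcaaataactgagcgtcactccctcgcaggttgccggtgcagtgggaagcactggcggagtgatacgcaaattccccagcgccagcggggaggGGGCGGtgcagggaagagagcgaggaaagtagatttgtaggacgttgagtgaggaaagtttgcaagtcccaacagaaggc
Col4a6: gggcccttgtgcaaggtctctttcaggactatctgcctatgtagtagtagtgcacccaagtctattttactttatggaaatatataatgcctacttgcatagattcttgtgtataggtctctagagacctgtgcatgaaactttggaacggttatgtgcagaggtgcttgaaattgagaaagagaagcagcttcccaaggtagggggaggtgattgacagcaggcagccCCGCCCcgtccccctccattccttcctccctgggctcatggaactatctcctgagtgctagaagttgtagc
The first pair of windows overlap by 78 bases. GGGCGG occurred 1 time in the window of Col4a1, 3 times in that of Col4a2, 1 time each in those of Col4a5 and Col4a6 and not in that of Col4a4. CCAAT occurred 1 time each for Col4a1, Col4a2 and Col4a5, and TATAAA in none of the 5. Over the 35 windows found for 32 members, 62.9% held GGGCGG, against 35.7% of 32851 RefSeq promoter windows of this length, 31.4% against 37.4% held CCAAT and 8.57% against 13.6% held TATAAA. The G and C content of the windows ran from 48.3% for Col4a6 to 74.0% for Col4a1. These are matches of letters only, and nothing about a bound factor follows from them.

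Levels are given as CPM, the UMIs of a gene per 1000000 UMIs of the same cluster and library, noise-only value first. Ratios are the AAV-Isl1 level over the noise-only level, with the interval in parentheses. A chain is called highest in a cluster by the mean CPM of both libraries. RNA released from broken cells puts some UMIs of any abundant gene into every droplet, so the erythroid-like cluster 16, whose cells should make no collagen, served as background: it held 688 and 471 collagen CPM, with Col1a2 at 175 and 92.3, Col4a1 at 60.2 and 29.3, Col14a1 at 49.6 and 34.9, Col1a1 at 51.4 and 11.8 and Col8a1 at 35.4 and 23.1 CPM. A member was taken as measured in a cluster with at least 50 UMIs over both libraries and a Poisson interval wholly above that of cluster 16 in at least 1 library. By this rule 34 of the 41 members were measured in 1 or more of the 23 clusters. Col6a5, Col7a1, Col20a1, Col22a1, Col24a1, Col26a1 and Col28a1 were measured in none. The background was not even over the cells of cluster 16. Its 5 cells with most collagen gave 33.8% of its collagen UMIs in the noise-only and 6.89% in the AAV-Isl1 library. A single noise-only cell held 72. The noise-only background, and which chains pass it, therefore rest in part on few cells, and what these cells are was not tested.

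**Figure D1:**
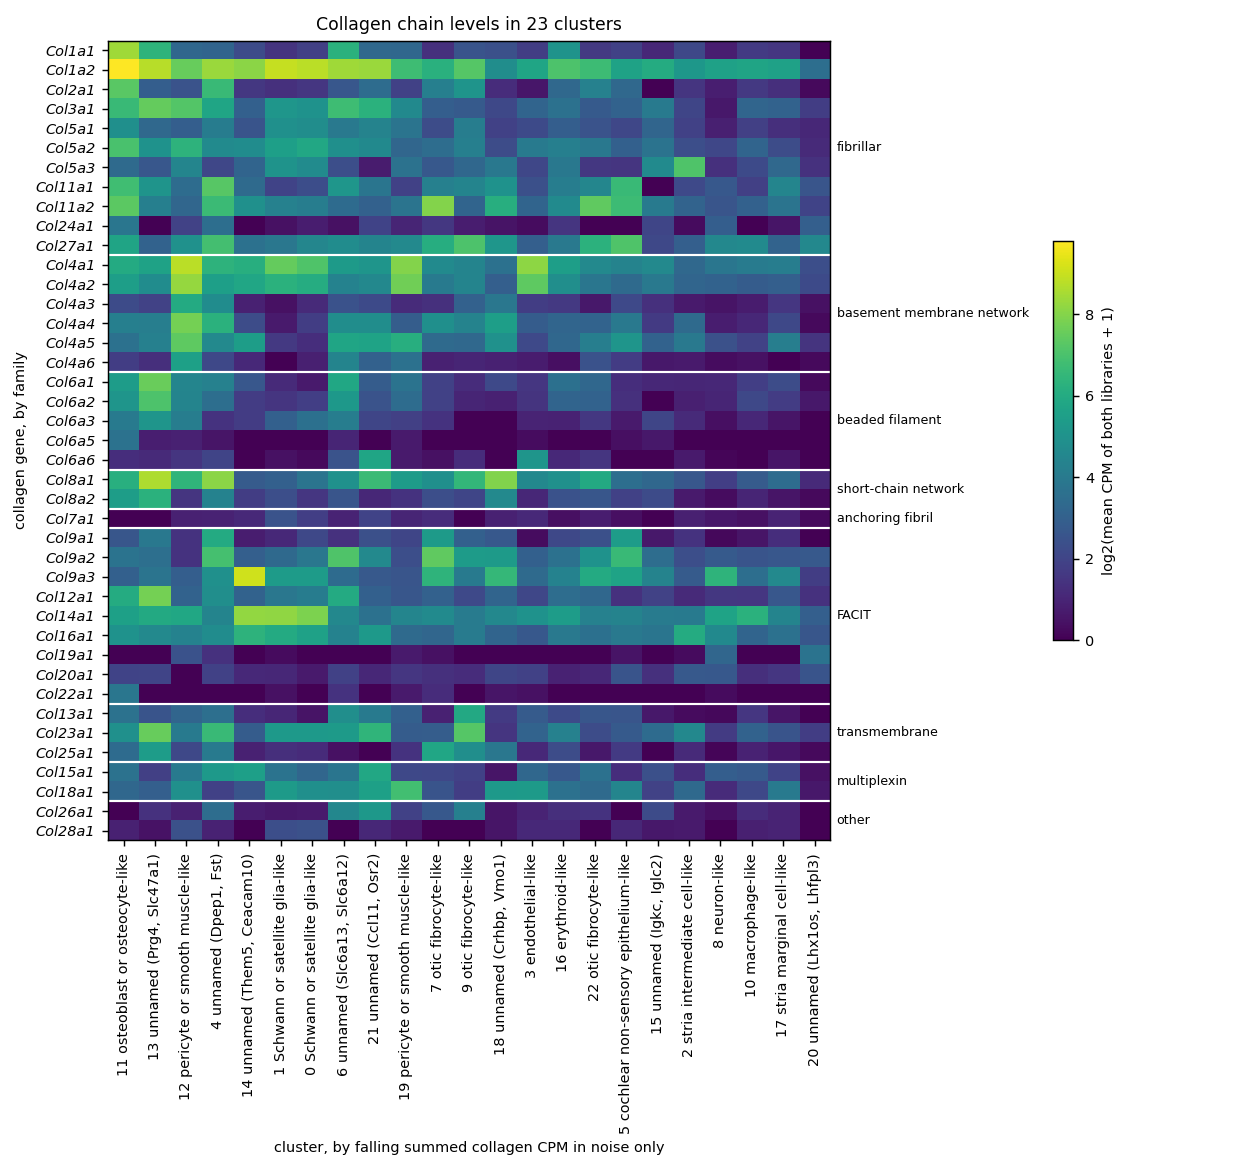
Level of each collagen chain (log2 of CPM plus 1, mean of both libraries) in each compared cluster, with chains grouped by family. The osteoblast-like cluster 11 is high in fibrillar chains, the pericyte-like cluster 12 in all 6 type IV chains, and cluster 14 in Col9a3 and Col14a1.

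The fibrillar family had 11 members and the most collagen UMIs, 12638 and 11773 in kept cells, and its levels peaked in the osteoblast-like cluster 11 (680 and 661 cells, led by the bone matrix genes Bglap and Ibsp). There the fibrillar chains took 77.8% and 74.8% of the collagen UMIs, and the summed collagen level was 2668 CPM in the noise-only and 2556 CPM in the AAV-Isl1 library, the highest of the named classes. Col1a2, a chain of type I collagen, the main protein of bone, stood at 897 and 899 CPM and its partner Col1a1 at 338 and 339 CPM. The type II chain Col2a1, the cartilage collagen, stood at 169 and 146 CPM, and the type XI chain Col11a2, which sets the width of cartilage fibrils, at 179 and 143 CPM. Col5a2, a type V chain that nucleates fibrils, was also at its highest there, at 132 and 122 CPM. Shares of cells were taken among cells of 1000 or more UMIs, thinned to that depth, which left 273 and 168 cells of the cluster. Of these 84.2% and 83.9% held a collagen UMI, against 53.6% and 48.1% of 9857 and 11672 cells of all clusters. Of the same thinned cells 17.9% and 25.6% held Col1a1, against 1.00% and 1.35% of the erythroid-like cells. A single noise-only cell held 161 collagen UMIs, and the 5 cells with most collagen gave 18% and 9.89% of the cluster's total.

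The share of the type I UMIs that came from Col1a1 differed between clusters. The finished trimer has 2 chains from Col1a1 and 1 from Col1a2. UMI shares are of RNA, and capture was not compared between the genes, so they are not set against that protein ratio. Col1a1 gave 27.3% and 27.4% of the type I UMIs in the osteoblast-like cluster and 16.1% and 15.3% in cluster 13. In the Schwann or satellite glia-like cluster 0 it gave 0.719% and 0.468%. Over all barcodes Col1a2 had 12810 UMIs and Col1a1 1099. Glia-like cells were thus high in Col1a2 alone, at 439 and 453 CPM in cluster 0 (3275 and 2370 cells) and 515 and 481 CPM in cluster 1 (3273 and 1985 cells). The differences between clusters were not tested.

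Other chains of the glia-like clusters were Col14a1, a fibril-associated chain, at 257 and 215 CPM in cluster 0 and 303 and 276 CPM in cluster 1, and Col4a1 at 137 and 135 CPM and 185 and 172 CPM. Col4a2 stood at 60.4 and 74.1 CPM in cluster 0 and 83.9 and 68.4 CPM in cluster 1. Cluster 0 also held Col5a2 at 66.4 and 49.1 CPM, and cluster 1 Col16a1, a minor fibril-associated chain, at 64.8 and 61.3 CPM. Col5a1, the partner of Col5a2, was highest in cluster 1 at 32.0 and 26.4 CPM. Summed collagen was 1437 and 1341 CPM over both clusters, a ratio of 0.933 (0.899 to 0.969).

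Col3a1, the type III chain of elastic connective tissue, was highest by the mean of both libraries in the unnamed cluster 13 (173 and 185 CPM). Its noise-only level was higher in cluster 12. Col3a1 had a ratio below 1 in 6 of the 8 clusters where it was measured. In the osteoblast-like cluster it was 128 and 68.8 CPM, a ratio of 0.537 (0.361 to 0.787). In all 1 of 12 measured members of this cluster was past 1.5-fold lower, where 5.59% of genes were, and none higher, where 5.55% were. In cluster 0 Col3a1 was 40.6 and 20.8 CPM (0.512, 0.347 to 0.742), and in cluster 1 it was 41.5 and 27.1 CPM (0.652, 0.436 to 0.955). The cluster 1 value turned to 1.06 once cells were thinned to 1000 UMIs. In the pericyte-like cluster 12 it was 181 and 111 CPM (0.616, 0.437 to 0.86).

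Col5a3, the third type V chain, was the leading chain of a single cluster, the stria intermediate-like cluster 2 of pigment cells that build the endocochlear potential. It stood at 137 and 139 CPM there (ratio 1.01, 0.868 to 1.19), and 54.9% of its UMIs in kept cells came from these 1079 and 1546 cells. After thinning, 12.2% (107 of 880) and 12.6% (144 of 1142) of the cells held a UMI, against 0.50% and 0.75% of the erythroid-like cells. Col16a1 followed at 65.5 and 64.8 CPM. Summed collagen in this cluster was 355 and 435 CPM, below the 688 and 471 CPM of the erythroid-like cluster in both libraries, so most other chains there were not measured.

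Basement membrane chains, 6 members of type IV, were led by the vessel wall clusters. In the pericyte or smooth muscle-like cluster 12, marked by the pericyte genes Rgs5 and Kcnj8 (673 and 595 cells), Col4a1 stood at 505 and 378 CPM and Col4a2 at 351 and 255 CPM; their products form the common type IV trimer. The chains of the other trimers were at their highest in the same cluster, Col4a4 at 250 and 186 CPM, Col4a5 at 189 and 144 CPM, Col4a3 at 76.0 and 50.6 CPM and Col4a6 at 45.6 and 48.6 CPM. Type IV took 61.9% and 57.8% of the cluster's collagen UMIs, or 1417 and 1063 CPM. The type I chain Col1a2 was at 157 and 210 CPM.

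Of these 6 chains, 5 were lower in the AAV-Isl1 library, with Col4a1 at a ratio of 0.749 (0.621 to 0.903), Col4a2 at 0.726 (0.577 to 0.91) and Col4a4 at 0.745 (0.568 to 0.973). The intervals of Col4a5 (0.556 to 1.03) and Col4a3 (0.391 to 1.11) included 1, and Col4a6 was at 1.07 (0.588 to 1.92). Of the 6, Col4a3 at 0.666 was past 1.5-fold lower. Beyond type IV, Col8a1 stood at 105 and 64.8 CPM (0.618, 0.391 to 0.962) and summed collagen at 2290 and 1840 CPM (0.803, 0.738 to 0.874). Of 11 measured members 3 were past 1.5-fold lower, where 7.19% of all measured genes of the cluster were, and none was higher, where 4.6% were. These 3 were Col3a1, Col8a1 and Col4a3.

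Markers of several classes differed between the libraries of cluster 12 as well. There the pericyte marker Kcnj8 was 698 and 468 CPM, Rgs5 8170 and 7397 CPM and the 11 pericyte or smooth muscle markers together 14301 and 12370 CPM, while the Schwann or satellite glia list stood at 3468 and 8164 CPM. Their part in the collagen ratios was not tested. In thinned cells 41.9% (72 of 172) and 29.9% (38 of 127) held a Col4a1 UMI, against 5.47% and 2.56% of the erythroid-like cells. Without thinning the shares were 30.6% and 23.7%.

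**Figure D2:**
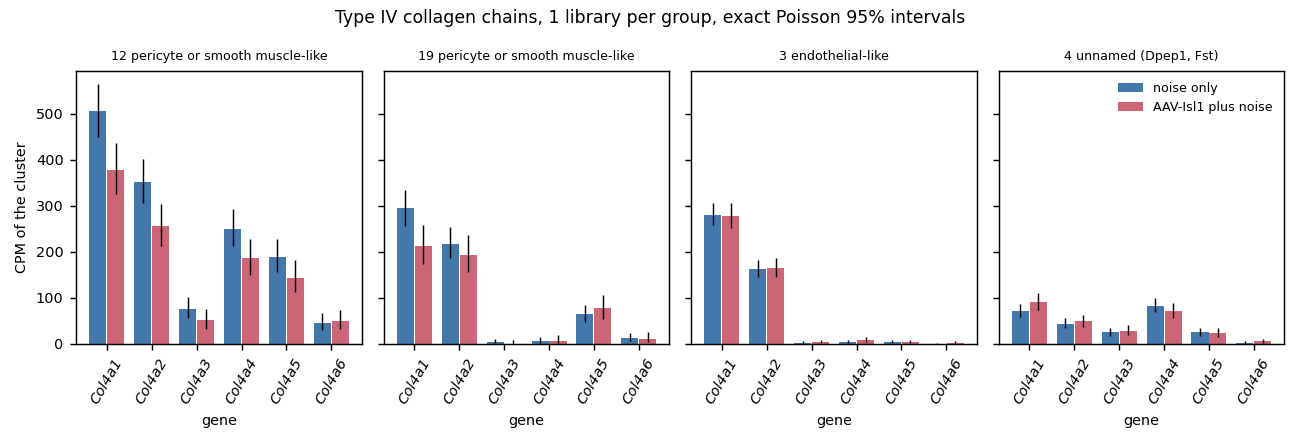
Levels of the 6 type IV chains (CPM, with exact Poisson 95% intervals for counting error) in the pericyte or smooth muscle-like clusters 12 and 19, the endothelial-like cluster 3 and the unnamed cluster 4, with 1 bar per library. In cluster 12 Col4a1 to Col4a5 are lower in the AAV-Isl1 library, and in cluster 3 Col4a1 lies at 280 and 277 CPM.

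Col4a1 and Col4a2 also led the other vessel clusters. In the smooth muscle-like cluster 19 (467 and 388 cells, led by Acta2 and Myh11), Col4a1 was 294 and 212 CPM (0.723, 0.566 to 0.917), Col4a2 217 and 194 CPM and Col4a5 63.7 and 77.1 CPM. The endothelial-like cluster 3 (1160 and 1196 cells) held Col4a1 at 280 and 277 CPM (0.989, 0.867 to 1.13) and Col4a2 at 162 and 164 CPM. Type IV took 63.7% and 57.9% of its collagen UMIs. Col4a1 gave 59.0% and 59.7% of the Col4a1 plus Col4a2 UMIs in cluster 12, 63.3% and 62.8% in cluster 3 and 57.5% and 52.3% in cluster 19. Whether the ratios of clusters 3, 12 and 19 differ beyond spread between animals was not testable with 1 library each.

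Col18a1, a multiplexin of basement membranes whose C-terminal fragment is endostatin, was highest in cluster 19 at 121 and 104 CPM, and stood at 33.9 and 44.9 CPM in the endothelial-like cluster. Col15a1, the other multiplexin, was highest in the unnamed cluster 21 at 65.1 and 51.2 CPM. In the unnamed cluster 4 it was 29.3 and 47.1 CPM, a ratio of 1.61 (1.04 to 2.49). The ratio of Col4a4 was below 1 in each of the 5 clusters in which it was measured, among them cluster 4 at 82.2 and 70.1 CPM and cluster 18 at 50.4 and 37.6 CPM. Col4a2 in the unnamed cluster 14 was 66.9 and 42.7 CPM (0.638, 0.418 to 0.975). Over clusters the levels of chain pairs were correlated, as a description over 26 clusters that share libraries: r was 0.942 for Col4a1 and Col4a2, 0.835 for Col4a3 and Col4a4 and 0.812 for Col4a5 and Col4a6.

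Col6a6, a type VI chain of microfibrils, had the lowest ratio of all members over all kept cells, at 0.388 (0.288 to 0.519). In the endothelial-like cluster 102 UMIs in the noise-only and 23 in the AAV-Isl1 library gave 52.4 and 15.9 CPM (0.304, 0.184 to 0.481). After thinning, 3.59% (28 of 779) and 1.30% (8 of 617) of these cells held a UMI, against 0.50% and none of 665 erythroid-like cells. In the unnamed cluster 21, where its level was highest, it was 51.2 and 55.6 CPM (1.09, 0.627 to 1.85). The list of 9 endothelial markers was lower too, at 14221 and 11848 CPM, with Cldn5 at 4604 and 3514 CPM. Ratios were 0.763 for Cldn5, 0.837 for Ly6c1 and 0.868 for Flt1. Pecam1 at 0.931, Cdh5 at 0.924 and Emcn at 0.948 had intervals that included 1. The part of these markers in the Col6a6 ratio was not tested.

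The other beaded-filament chains that were measured had their highest levels in the unnamed cluster 13 (414 and 759 cells, led by Prg4 and Slc47a1), in which type VI took 15.2% and 15.4% of the collagen UMIs. Col6a1 stood at 201 and 178 CPM, Col6a2 at 132 and 133 CPM and Col6a3 at 26.1 and 40.5 CPM. Of their UMIs in kept cells, 52.9% of Col6a1 and 50.5% of Col6a2 came from this cluster. Over all kept cells these were among the highest ratios, 1.21 for Col6a1 and 1.28 (1.09 to 1.51) for Col6a2, and the cluster itself had 414 and 759 cells.

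Cluster 13 was rich in several families. Col1a2 was 433 and 443 CPM, Col8a1, the short-chain network chain known from Descemet's membrane and vessel walls, 424 and 353 CPM (0.833, 0.73 to 0.95), Col12a1, a fibril-associated chain of dense connective tissue, 231 and 203 CPM, and Col23a1, a transmembrane chain, 175 and 195 CPM. Col8a2, the partner of Col8a1, was also highest there at 81.1 and 70.2 CPM. Col14a1 was 42.0 and 79.4 CPM (1.89, 1.32 to 2.75), of which the noise-only level lay below the 49.6 CPM of the erythroid-like cluster. Of 15 measured members 3 were past 1.5-fold higher, where 2.43% of all genes were, and none lower, where 2.29% were; the others higher were Col6a3 (0.962 to 2.54) and Col5a2 (0.961 to 2.63), whose intervals included 1. Of these 3, Col6a3 alone exceeded the erythroid-like level in both libraries. Summed collagen was 2363 and 2295 CPM.

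The fibril-associated family, 9 members, was led by Col9a3, a type IX chain that decorates type II fibrils, in the unnamed cluster 14 (336 and 758 cells, led by Them5 and Ceacam10). It stood at 547 and 553 CPM (1.01, 0.889 to 1.15), and fibril-associated chains took 58.5% and 61.4% of the cluster's collagen UMIs. Its type IX partners were near absent there: Col9a1 gave 0.265% and 0% of the Col9a1 plus Col9a3 UMIs, 1 of 377 and 0 of 635 UMIs. In cluster 4 the share was 70.2% and 65.6%, and over 26 clusters r for this pair was 0.153. After thinning, 38.9% and 40.2% of the cells of cluster 14 held Col9a3, against 1.49% and 1.80% of the erythroid-like cells (56.5% and 49.9% without thinning). Col14a1 followed at 284 and 315 CPM, Col1a2 at 266 and 286 CPM, Col16a1 at its highest of 78.5 and 80.1 CPM, and Col4a1 at 77.1 and 63.6 CPM.

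Col9a3 was also the leading chain of neuron-like cells. In the neuron-like cluster 8 (493 and 966 cells) it stood at 85.3 and 79.1 CPM (0.927), before Col27a1, a fibrillar chain, at 25.2 and 20.8 CPM, and the fibril-associated Col19a1 at 11.4 and 5.24 CPM (0.458, 0.293 to 0.708). Col14a1 at 52.6 and 49.2 CPM and Col1a2 at 47.9 and 48.7 CPM were not measured, Col14a1 because its noise-only interval overlapped that of cluster 16 and its AAV-Isl1 interval did too, and Col1a2 because it lay under that cluster. Median depth was 10730 UMIs per cell in the noise-only and 6836.5 in the AAV-Isl1 library. In cluster 20, unnamed and led by Lhx1os and Lhfpl3, Col19a1 was at its highest, 12.1 and 12.9 CPM, with Col27a1 at 25.7 and 20.5 CPM, not measured because its intervals overlapped those of cluster 16, and summed collagen was 110 and 110 CPM.

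Among the otic fibrocyte-like clusters, 7 and 22 were led by Col11a2, and 9 by Col1a2. Cluster 7 (572 and 1000 cells) had Col11a2 at 255 and 251 CPM (0.983, 0.835 to 1.16), Col9a2, the third type IX chain, at 170 and 171 CPM, Col9a3 at 75.7 and 87.0 CPM, Col27a1 at 73.7 and 61.3 CPM and the transmembrane chain Col25a1 at 53.8 and 55.7 CPM. Col11a2, Col9a2 and Col25a1 were at their highest in this cluster. Col8a1 was 13.9 and 43.9 CPM there (3.15, 1.74 to 6.08, from 14 and 63 UMIs), with 0.77% and 3.45% of thinned cells holding a UMI. The noise-only level lay below the 35.4 CPM of the erythroid-like cluster, so the chain counted as measured only through the library in which it was high, and the ratio is not over a level above background. The fibrocyte genes Otos and Coch were 5066 and 7276 CPM and 12656 and 11284 CPM, and their part was not tested.

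The second fibrocyte-like cluster, 9 (944 and 452 cells, with Emilin2 at 3844 and 4033 CPM), had Col1a2 at 147 and 154 CPM, Col23a1 at 124 and 173 CPM (1.39, 1.06 to 1.81), Col27a1 at 139 and 127 CPM, Col8a1 at 86.3 and 92.4 CPM and Col13a1, a transmembrane chain of cell adhesions, at its highest of 64.5 and 53.4 CPM. Transmembrane chains took 24.8% and 25.6% of its collagen. Col2a1 was 49.8 and 16.4 CPM (0.33, 0.137 to 0.686), from 71 and 8 UMIs. Col2a1 exceeded the erythroid-like level in the noise-only library alone. Of 8 measured members 2 were past 1.5-fold lower, where 5.03% of genes were, and none higher, where 5.5% were; the other was Col25a1 (0.216 to 1.02). The third such cluster, 22 (283 and 337 cells), held Col11a2 at 164 and 175 CPM, Col27a1 at 79.3 and 76.8 CPM and Col8a1 at 62.3 and 61.2 CPM, and Col9a3 at 43.0 and 82.5 CPM (1.92, 1.25 to 2.97).

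Cluster 4, unnamed and led by Dpep1 and Fst (1039 and 989 cells), had the most measured members, 19, and an even make-up: its 5 leading chains took 50.1% of collagen UMIs in each library, against 79.1% and 82.7% in cluster 14. Col1a2 was 315 and 331 CPM, Col8a1 269 and 282 CPM, Col11a1, the type XI chain known from stiff tectorial and cartilage fibrils, 168 and 135 CPM, Col9a2 139 and 97.8 CPM (0.702, 0.549 to 0.894) and Col27a1 126 and 106 CPM. Col9a1 was at its highest there, at 70.7 and 54.5 CPM, and Col2a1 at 110 and 86.8 CPM. Col11a2 fell past 1.5-fold, at 124 and 81.2 CPM (0.653, 0.5 to 0.849). In all 1 of 19 members was past 1.5-fold higher, where 3.89% of genes were, and 2 lower, where 3.0% were. The other lower member, Col8a2, exceeded the erythroid-like level in the noise-only library alone. Of the 18 measured synthesis and processing genes 17 were below 1 with a median log2 ratio of -0.17, and 3 were past 1.5-fold lower, beside the same 3.0%. The share of all genes of cluster 4 below 1 is not given here.

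The cochlear non-sensory epithelium-like cluster 5 (976 and 892 cells), which includes cells that secrete the tectorial membrane, had summed collagen of 634 and 953 CPM, a ratio of 1.5 (1.38 to 1.64), the highest among the named classes with measured chains. By the mean of both libraries Col27a1 was highest in this cluster, at 114 and 158 CPM (1.39, 1.13 to 1.71). Its noise-only level was higher in cluster 9, at 139 CPM. Col11a2 was 107 and 101 CPM. Col11a1 was 77.3 and 122 CPM (1.57, 1.23 to 2.01) and Col9a2 72.9 and 127 CPM (1.75, 1.36 to 2.24). Col9a1 was 28.7 and 54.1 CPM (1.89, 1.27 to 2.82), Col4a5 26.2 and 41.6 CPM (1.59, 1.03 to 2.46) and Col9a3 43.6 and 59.1 CPM. Of 7 measured members 4 were past 1.5-fold higher, where 9.01% of genes were, and none lower, where 5.25% were. Of the 4, Col4a5 exceeded the erythroid-like level in the AAV-Isl1 library alone, so the filter itself favours a ratio above 1 there.

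Markers of several classes differed between the libraries of cluster 5, and fewer cells of a type and less RNA per cell cannot be told apart there. The 15 non-sensory epithelium markers summed to 33448 and 21548 CPM, with the tectorial membrane genes Ceacam16 at 2325 and 1258 CPM and Epyc at 1885 and 975 CPM. The 6 otolithic membrane markers summed to 623 and 1673 CPM, with Otol1 at 94.1 and 348 CPM, Otog at 289 and 914 CPM, Tectb at 98.5 and 221 CPM and Zpld1 at 0 in both, of which 4 and 5 of the 6 were above 0. In the 672 and 541 cells without any UMI of these 6 genes, the summed collagen ratio was 1.33, Col9a1 was at 1.59 and Col4a5 at 2.45, but Col11a1 turned to 0.733 and Col9a2 to 0.834. The Schwann or satellite glia list stood at 2502 and 4220 CPM, the otic fibrocyte list at 409 and 864 CPM and the erythroid list at 130 and 342 CPM; their part was not tested. Isl1 itself was 111 and 585 CPM.

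Cluster 18, unnamed and led by Crhbp and Vmo1 (399 and 521 cells), gave the short-chain network family the largest share of collagen UMIs of the compared clusters, although Col8a1 and Col8a2 had higher levels in cluster 13. Col8a1 was its leading chain at 329 and 167 CPM (0.508, 0.423 to 0.607) and Col8a2 was 31.0 and 16.2 CPM (0.524, 0.281 to 0.953), so that the family took 41.6% of collagen UMIs in the noise-only and 23.8% in the AAV-Isl1 library. Col27a1 was 21.3 and 47.9 CPM (2.25, 1.35 to 3.86) and Col9a2 27.1 and 53.0 CPM (1.95, 1.23 to 3.17). Col9a3 was 111 and 74.4 CPM (0.668, 0.499 to 0.89) and Col11a2 60.1 and 81.2 CPM. Of 9 measured members 2 were past 1.5-fold higher, where 6.94% of genes were, and 2 lower, where 5.37% were. Of these, Col27a1 and Col9a2 exceeded the erythroid-like level in the AAV-Isl1 library alone. Col8a2 did so in the noise-only library alone. For these chains the filter itself favours a difference but does not force it, since each library was set against its own background.

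The genes that define cluster 18 were lower in the same library, Vmo1 at 10208 and 5039 CPM and Crhbp at 7656 and 3063 CPM. Among the 234 and 184 cells that held a UMI of both, Col8a1 was at 0.868 (0.717 to 1.05), Col27a1 and Col9a2 each turned to 0.813 and Col8a2 to 1.06. In thinned cells of the whole cluster 21.2% (78 of 368) and 13.4% (61 of 455) held Col8a1, against 2.99% and 2.11% of the erythroid-like cells, and without thinning 35.6% and 21.1%.

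**Figure D3:**
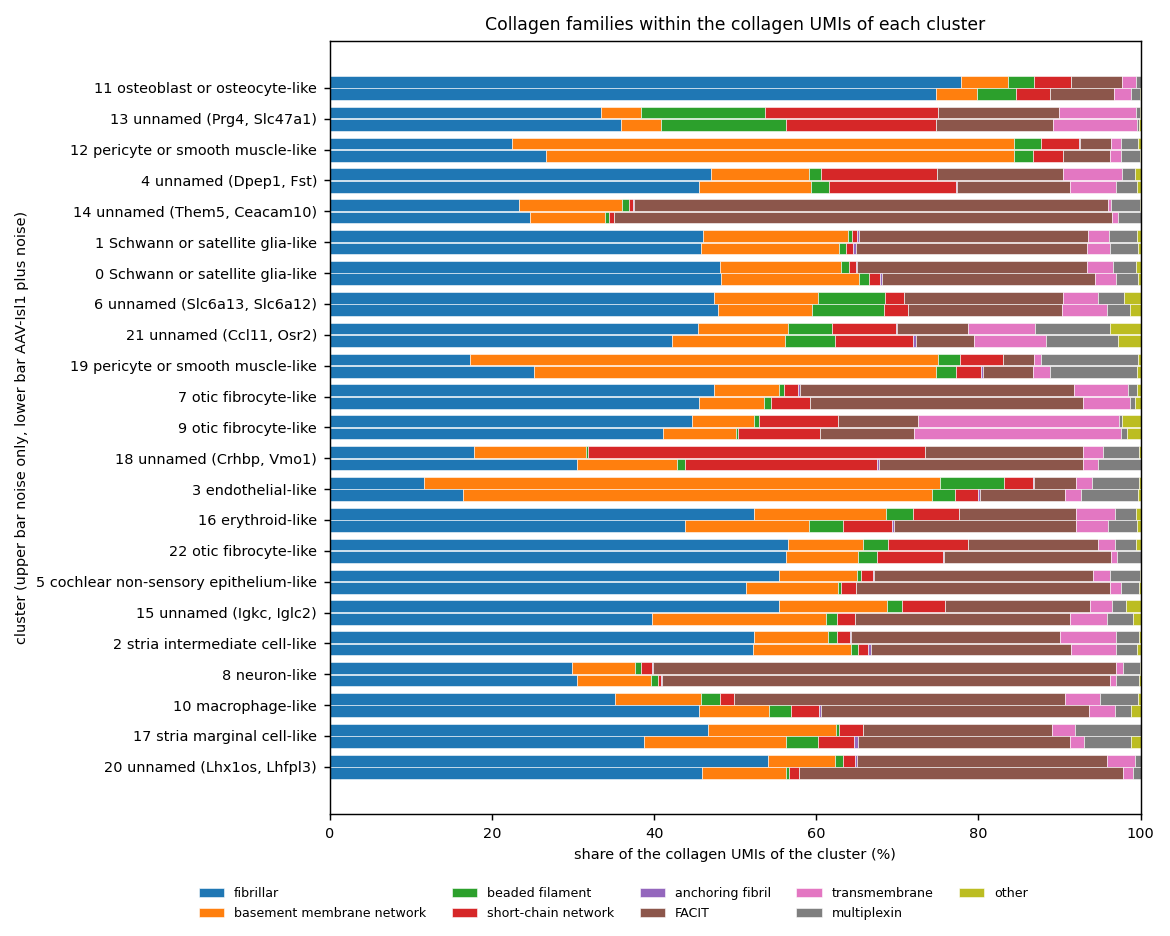
Share of each collagen family in the collagen UMIs of a cluster (percent), with the noise-only bar above the AAV-Isl1 bar. Fibrillar chains fill 77.8% and 74.8% of the osteoblast-like cluster, type IV chains 61.9% and 57.8% of the pericyte-like cluster 12, and short-chain chains 41.6% and 23.8% of cluster 18.

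Of the clusters not yet described, 6 and 21 were unnamed. Cluster 6 (397 and 1206 cells, led by the transporters Slc6a13 and Slc6a12) held Col1a2 at 331 and 343 CPM, Col9a2 at 159 and 117 CPM (0.736), Col3a1 at 124.6 and 90.5 CPM and Col1a1 at 59.1 and 93.3 CPM (1.58, 1.12 to 2.25), with Col12a1 at 55.4 and 71.1 CPM. Cluster 21 (384 and 319 cells, led by Ccl11 and Osr2) held Col1a2 at 312 and 332 CPM, Col8a1 at 85.9 and 116 CPM, Col23a1 at 81.7 and 86.8 CPM, Col3a1 at 80.3 and 71.2 CPM and Col15a1 as given. In the macrophage-like cluster 10 (498 and 893 cells) Col14a1 was 91.7 and 60.5 CPM (0.66, 0.49 to 0.888) and Col27a1 24.5 and 25.7 CPM.

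In 3 clusters no member was measured, in cluster 16 because the rule sets each level against that cluster itself. They were the erythroid-like cluster 16, the stria marginal-like cluster 17 (summed collagen 213 and 341 CPM, with Col1a2 at 39.6 and 57.0 CPM) and the lymphoid gene cluster 15 led by Igkc and Iglc2 (358 and 244 CPM). Hair cell-like cells, not compared for their few cells, had 281 and 254 collagen CPM. The difference in the erythroid-like cluster 16, a ratio of 0.685 (0.605 to 0.776), went with the bone genes Bglap, at 808 and 158 CPM, and Ibsp, at 197 and 45.5 CPM; its part was not tested.

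The chains measured in none of the clusters had their highest levels as follows, given without intervals and in part from few UMIs. Col20a1 was 18 and 5.41 CPM in the hair cell-like cluster, where 3 of 93 and 2 of 316 cells held a UMI. In the osteoblast-like cluster Col24a1 and Col22a1 were each 19.7 and 6.88 CPM and Col6a5 1.41 and 22.3 CPM. Col26a1 was 41.5 and 31.2 CPM in cluster 21, Col28a1 6.76 and 2.02 CPM in cluster 12 and the anchoring fibril chain Col7a1 3.74 and 5.70 CPM in cluster 1. Their ratios over all kept cells were among the most extreme, 3.80 (1.39 to 13) for Col6a5 from 5 and 20 UMIs, 1.17 for Col7a1, 0.589 (0.346 to 0.983) for Col28a1, 0.685 (0.507 to 0.922) for Col24a1 and 0.721 (0.543 to 0.955) for Col26a1.

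**Figure D4:**
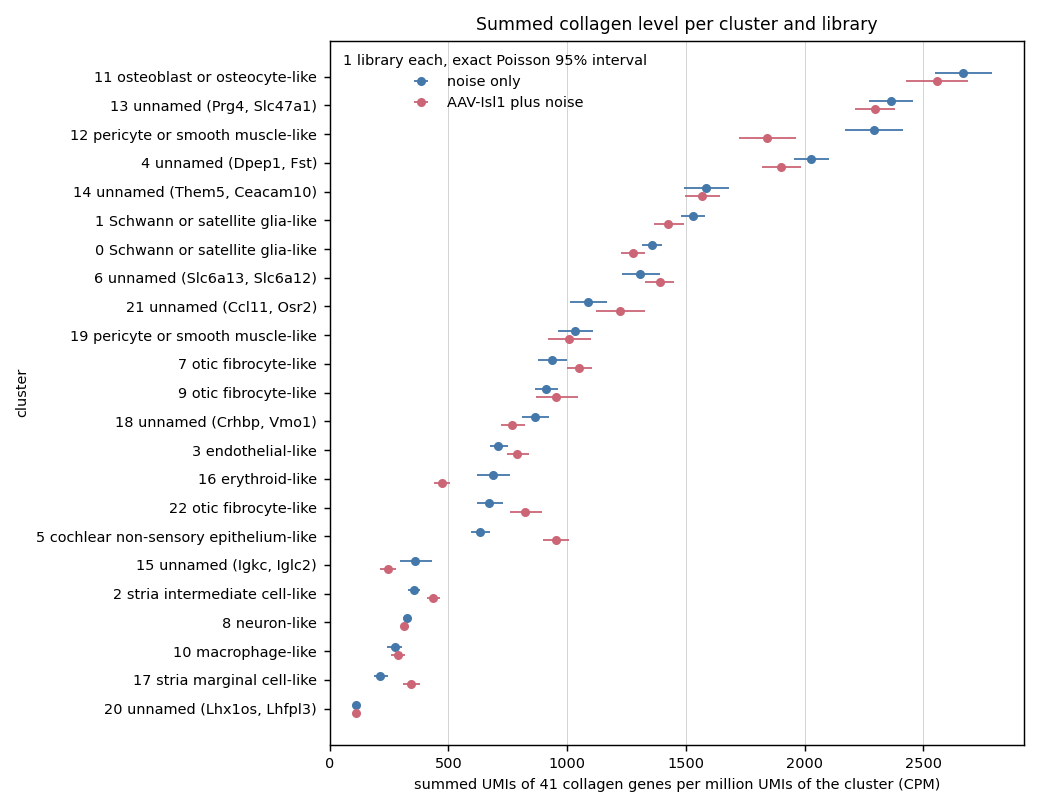
Summed collagen level (CPM, with exact Poisson 95% intervals for counting error) of each compared cluster by library. The osteoblast-like cluster 11 lies highest at 2668 and 2556 CPM and cluster 20 lowest at 110 and 110 CPM.

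Over all kept cells, collagen made up 891 CPM of the noise-only and 796 CPM of the AAV-Isl1 library, a ratio of 0.893 (0.878 to 0.907). Of the 41 members 12 were above 1 and 29 below, with a median log2 ratio of -0.18, against -0.02 over 17118 genes. Past 1.5-fold were 1 higher, Col6a5, where 7.59% of all genes were, and 2 lower, Col6a6 and Col28a1, where 3.7% were. Besides the members already given, the 6 highest ratios included Col9a3 at 1.21 and Col4a6 at 1.19, and the 6 lowest Col13a1 at 0.706 (0.568 to 0.876) and Col4a1 at 0.747. The libraries differed in cell make-up, with 6548 and 4355 Schwann or satellite glia-like cells, so these ratios mix levels within clusters with numbers of cells.

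Within clusters the members moved in both directions. The 162 measured pairs of a member and a cluster had 75 ratios above 1 and 87 below, with a median log2 ratio of -0.05. Past 1.5-fold higher were 15 pairs, or 9.26%, where 4.07% of 82377 gene and cluster pairs were, and 17 were lower, or 10.5%, where 3.5% were. For 11 and 13 of these the interval did not include 1. A pair had to exceed the erythroid-like level in 1 library only. For 6 of the 11 and 4 of the 13 this was only the library in which they were high. In these 10 pairs the filter favours a difference but does not force it, since each library had its own background. For Col1a1 that background was 51.4 and 11.8 CPM. The 10 were Col4a5 in cluster 5, Col1a1 in cluster 6, Col8a1 in cluster 7, Col14a1 in cluster 13 and Col9a2 and Col27a1 in cluster 18 on the higher side, and Col3a1 in cluster 0, Col2a1 in cluster 9, Col4a2 in cluster 14 and Col8a2 in cluster 18 on the lower side. By family, the fibril-associated chains had 5 higher and 2 lower of 33 pairs, type IV 1 and 3 of 31, fibrillar 4 and 6 of 55, short-chain 1 and 4 of 13, multiplexins 2 and 0 of 10, type VI 1 and 1 of 9 and transmembrane chains 1 and 1 of 11. Some of these pairs did not hold in narrower sets of cells. Col9a2 and Col11a1 in cluster 5 fell below 1 without cells with otolithic markers. In cells of cluster 18 with both Vmo1 and Crhbp, Col9a2 and Col27a1 fell below 1 and Col8a2 rose above it. Low counts pass a fold more often, and the members were not matched to other genes by count.

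**Figure D5:**
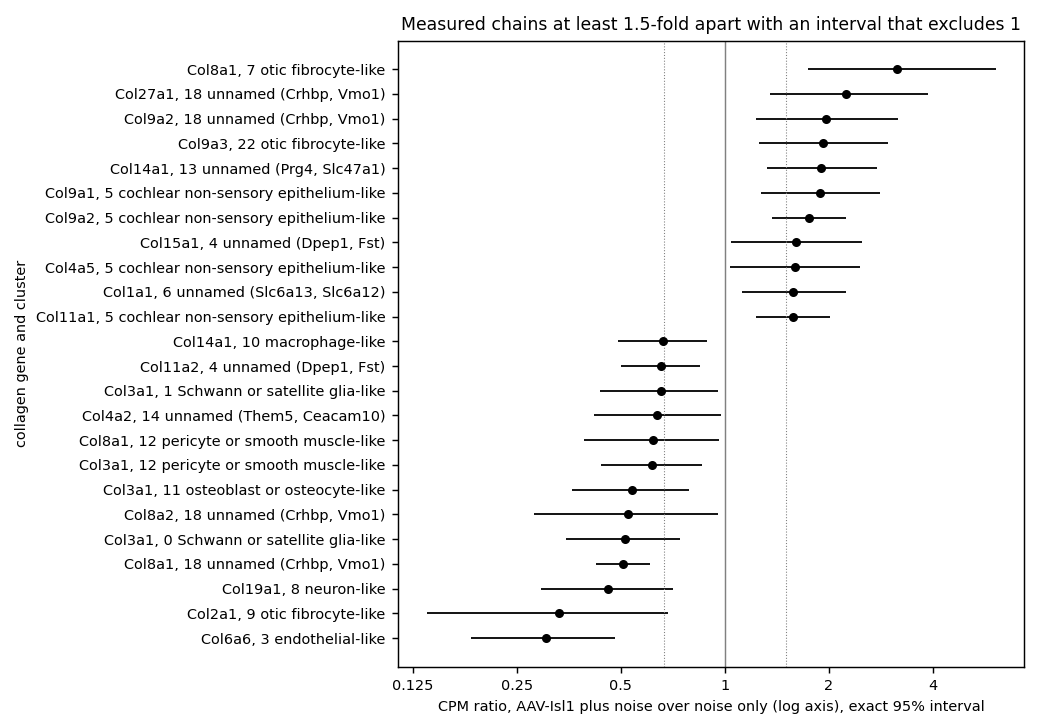
Ratio of AAV-Isl1 over noise-only level (log axis) of each chain past 1.5-fold whose interval excludes 1, with exact 95% intervals for counting error and dotted lines at 1.5-fold either way. Col8a1 lies at 3.15 in cluster 7, over a noise-only level below background, and at 0.508 in cluster 18, and Col6a6 at 0.304 in the endothelial-like cluster. In cells of cluster 18 with both Vmo1 and Crhbp, the interval of Col8a1 included 1, and Col27a1, Col9a2 and Col8a2 moved to the other side of 1. So did Col11a1 and Col9a2 of cluster 5 in cells without otolithic markers.

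Genes that make, bind or break down collagen were read from 6 lists, whose counts over all kept cells stand beside 7.59% of all genes past 1.5-fold higher, 3.7% lower and a median log2 ratio of -0.02. Counts above and below 1 within a single cluster stand without such a value over all its genes. They are therefore not read as particular to a list. Of the 33 measured of 34 synthesis and processing genes 6 had a ratio above 1 and 27 below over all kept cells (median log2 ratio -0.16), with 0 past 1.5-fold higher and 1 lower. Sparc, a collagen-binding matrix protein, was 711 and 550 CPM, and Ppib, a prolyl isomerase, 389 and 355 CPM. In the osteoblast-like cluster 6 were above 1 and 9 below of 15, with Sparc at 1340 and 1415 CPM, Ppib at 616 and 600 CPM and the chaperone gene Serpinh1 at 279 and 215 CPM.

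Of 10 measured collagen receptors 2 were above 1 and 8 below over all kept cells (median -0.17), led by Itgb1 at 320 and 289 CPM, Itga1 at 43.1 and 32.2 CPM and Ddr2 at 38 and 29.5 CPM. In cluster 12 all 5 measured receptors were below 1, Itgb1 at 797 and 757 CPM and Itga1 at 539 and 401 CPM. The share of all genes of cluster 12 below 1 is not given here. Of 15 breakdown genes 5 were above and 10 below (median -0.15), 3 past 1.5-fold higher (7.59% of all genes) and 2 lower (3.7%), with the inhibitor Timp3 at 572 and 495 CPM, Timp2 at 261 and 226 CPM and Mmp2, a gelatinase, at 50.7 and 38.3 CPM. The breakdown list includes Mmp8, a leading gene of the neutrophil or progenitor-like cluster 23. That cluster had 25 and 450 cells, and its part in these counts was not tested.

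Of the 20 basement membrane partners 4 were above 1 and 16 below (median -0.14), 1 past 1.5-fold each way, with Dag1 at 199 and 177 CPM, Lamb2 at 69.2 and 58.0 CPM and Lamb1 at 61.3 and 52.9 CPM. In cluster 12, 4 of the 9 measured partners were above 1 and 5 below (median -0.08). In the endothelial-like cluster 6 of 8 were above (median 0.23), with Hspg2, which encodes perlecan, at 111 and 133 CPM and Dag1 at 90.4 and 153 CPM.

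Of 19 small leucine-rich proteoglycans and fibril partners 3 were above 1 and 16 below (median -0.24), 1 past 1.5-fold higher and 4 lower, with Dcn at 544 and 593 CPM, Ogn at 252 and 214 CPM and Fn1 at 84.6 and 74.3 CPM. In the osteoblast-like cluster 3 of 13 were above and 10 below, and 4 were past 1.5-fold lower, where 5.59% of all genes of the cluster were. Of 8 tectorial and otolithic partners 6 were above and 2 below (median 0.74), 4 past 1.5-fold higher (7.59% of all genes) and 2 lower (3.7%), with Ceacam16 at 123 and 52.3 CPM, Epyc at 103 and 42.9 CPM and Otog at 21.5 and 52.2 CPM. In cluster 5, 8 of this list were measured too, with 4 past 1.5-fold higher, where 9.01% of genes were, and 2 lower, where 5.25% were.

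Some chains had ratios mostly on 1 side of 1 across the clusters in which they were measured. The ratio of Col1a2 was above 1 in 9 of 10, Col8a2 below 1 in 4 of 4 and Col2a1 below 1 in 3 of 3. Where a chain was not measured, it had too few UMIs or no level clear of the background. In such clusters Col1a2 was above 1 in 11 of 12, Col14a1 in 15 of 16, Col4a1 in 10 of 14, Col8a2 in 16 of 18 and Col12a1 in 15 of 18. Col2a1 was above 1 in 12 of 19 such clusters and below in 6. Unmeasured Col1a2 ran from 10.2 to 94.9 CPM in the noise-only library, all under the level of cluster 16. In the AAV-Isl1 library it ran from 11.1 to 131 CPM. The top of that range lay above cluster 16, but not with intervals apart. These clusters share 2 libraries and the background of each, so the counts are not independent.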

How the data were processed

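Both libraries are UMI counts per gene and barcode that the authors deposited as filtered matrices. Cell Ranger 5.0, STAR, Seurat 3.2.2 and the builds mm10 and GRCm38 are named in the submitters' processing notes, and Cell Ranger 5.0.1 per the file headers. The lowest barcode holds 500 UMIs, so barcodes were filtered before deposit; the annotation is not given in the sources used here. The members and lists were chosen with earlier results of these data known.

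Barcodes needed 300 or more genes and no more than 20% of UMIs from mitochondrial genes. Scrublet's automatic thresholds (0.67 and 0.572) marked 0 doublets in either library, so the top 6% of scores were removed, 1196 and 1302 barcodes, a choice made after seeing this. In Python 3.11.15 with scanpy 1.11.5, numpy 2.4.6, pandas 2.3.3 and scikit-learn 1.9.0, 3132 variable genes, without the 15 collagens among them, gave 50 principal components and 15 neighbours, and leidenalg 0.10.2 at resolution 1 gave the clusters. A cluster took the name of a class once 3 or more of its markers were present in 10% of the cells of the cluster and 4-fold or more higher than elsewhere. A marker of the class also had to be among the 10 leading genes, and no rival class could have more markers there. A rival that itself had 3 or more such markers could not have as many. Clusters that failed any of these, 9 in all, stayed without a name. Rebuilt names may differ from those of the study.

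UMIs were summed per cluster and library. Intervals are exact Poisson for levels, exact Clopper-Pearson for shares and exact conditional binomial for ratios (scipy 1.17.1). UMIs count molecules, and cells of a library are not replicates. With 1 pooled library per group no p-value was computed; a fold of 1.5 took the place of a test, over all genes with at least 50 UMIs in the cluster and a level above the erythroid-like cluster 16. The ratio script was tested on simulated data. Shares of cells were taken after thinning to 1000 UMIs, leaving out shallower cells.

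Every member was named with its highest cluster, by the mean level of both libraries. For each cluster compared, the 5 members with the highest mean level were named, as far as measured or shown as background, and up to 6 each way past 1.5-fold whose interval excluded 1; over all kept cells, the 6 highest and 6 lowest ratios; and of the partner lists (synthesis, receptors, breakdown, basement membrane, small leucine-rich proteoglycans and fibril partners, tectorial and otolithic partners) the 3 genes with most UMIs. Alternatives were stricter cell filters, no doublet removal, resolution 0.5, collagens among the clustering genes, another scaling, thinning, other UMI minimums, and leaving out shared barcodes or the 5 cells with most collagen. Those on otolithic, bone, Vmo1 and Crhbp cells, on equal weights of clusters and on the erythroid comparison were chosen after seeing the data. Figures were drawn with matplotlib 3.10.9.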

Additional observations from a re-analysis of the deposited data

Results flagged for a closer look

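The ratio of Col8a1 pointed in opposite directions in different clusters: 3.15 in the otic fibrocyte-like cluster 7, against 0.618 in the pericyte or smooth muscle-like cluster 12 and 0.508 in cluster 18. Col14a1 did so too, at 1.89 in cluster 13 and 0.66 in the macrophage-like cluster 10. Each interval excluded 1. Among the cells of cluster 18 that held both Vmo1 and Crhbp, however, the interval of Col8a1 included 1, as given above. The noise-only levels of Col8a1 in cluster 7 (13.9 CPM) and of Col14a1 in cluster 13 (42.0 CPM) lay below those of the erythroid-like cluster 16 (35.4 and 49.6 CPM), so both counted as measured only through the AAV-Isl1 library, and the filter itself favours a ratio above 1 there. The differences between clusters were not tested, since each group is 1 library.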

How the results depend on the processing

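No paired analysis was possible because all ears with the same treatment went into a single pool. With 1 library per group the values describe these libraries, and depth limits chains with few UMIs. No value that was recomputed changed beyond its counting interval without the shared barcodes, without doublet removal, with collagens among the clustering genes or with a median-of-gene-ratios scaling.

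For the values that did move, the cause was not tested. After thinning to 1000 UMIs, summed collagen was at 1.22 in the endothelial-like, 0.782 in the neuron-like, 1.06 in the osteoblast-like and 0.783 in the erythroid-like class, the Col4a1 share of pericyte or smooth muscle-like collagen was 25.4%, Col3a1 in cluster 1 was at 1.06, 2 members were past 1.5-fold higher and 6 lower over all kept cells (median log2 ratio -0.29), and 5 class and chain pairs were lower. Under a stricter filter (500 genes, 10% mitochondrial UMIs), osteoblast-like collagen was at 1.03 and erythroid-like at 0.613, and 4 members were lower (median -0.28). At resolution 0.5, non-sensory epithelium-like collagen was at 1.19, the share of Col27a1 there 11.6%, of Col11a2 in fibrocyte-like cells 25.1% and of Col1a2 in osteoblast-like cells 23.5%; no neuron-like class could be named. Without the 5 cells with most collagen, osteoblast-like collagen was at 1.05 and erythroid-like at 0.904, and without cells with bone markers erythroid-like collagen was at 0.866. Counting members from 1 UMI, 2 were higher. Without the comparison with erythroid-like cells, 17 class and chain pairs were higher and 13 lower. Without cells with otolithic markers, non-sensory epithelium-like collagen was at 1.33, Col11a1 in cluster 5 at 0.733 and Col9a2 at 0.834. In cells of cluster 18 with both Vmo1 and Crhbp, Col27a1 and Col9a2 were at 0.813 and Col8a2 at 1.06. Col8a1 moved there too, to the value given above, with an interval that included 1.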
